A study of Mus musculus with 31 samples.

Results

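The 10 genes of the core circadian clock loop were read probe by probe in liver and epididymal adipose tissue of mice exposed to intermittent hypoxia. Probes were taken where the platform annotation gives one of the symbols Arntl (also called Bmal1), Clock, Npas2, Nr1d1, Nr1d2, Per1, Per2, Per3, Cry1 or Cry2. This gave 17 of the 25697 probes on the array, for 10 of the 16593 genes it names. The series holds 31 bead arrays, 1 per RNA sample. Mice in the IH groups had 14 days of intermittent hypoxia, with 60 s cycles of 30 s at 5% inspired oxygen and 30 s at 21% for 8 hours a day. Mice in the normoxia (NO) groups breathed air in place of both phases of the cycle. There were 7 IH and 8 NO livers, and 8 IH and 8 NO adipose samples, and the methods describe C57BL/6JRj males aged 16 weeks for the liver work. The exposure ran from 8 to 16 h within a light phase of 8 to 20 h, and mice were killed on day 15. The hour of killing is not given in the sources used here. Both exposures shared the strain, the sex and the light schedule, and the animals were caged 5 to a cage with free access to food.

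The clock of a mammalian cell is a loop in which ARNTL pairs with CLOCK or its relative NPAS2, binds E-box sequences and drives transcription of the Per, Cry and Nr1d genes. PER and CRY proteins return to the nucleus and inhibit that pair. NR1D1 and NR1D2, the REV-ERB receptors, repress Arntl through ROR elements, so transcripts of Arntl and of the Nr1d genes peak at opposite times of day, and in liver the loop is also set by feeding.

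Of the 10 genes, 7 were read in both tissues, namely Arntl, Clock, Nr1d1, Nr1d2, Per1, Per2 and Cry2. A probe was kept where its detection p-value, which compares it with negative control beads, was under 0.01 on at least 7 liver or 8 adipose arrays. That left 10 of the 17 probes in liver and 11 in adipose tissue, and the brightest of these stood for the gene. Npas2 and Cry1 had 1 probe each, detected on 0 of 31 arrays. Per3 was detected on 1 of 7 IH livers and 0 of 8 NO livers, and on 2 of 8 IH and 3 of 8 NO adipose samples, and was not kept. The loop is therefore described here without NPAS2, PER3 and CRY1. Values are log2 intensities after background correction and quantile normalization within a tissue, and a difference of 1 is a 2-fold change.

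The livers carried their defining markers and little of those of fat. Alb was detected on 15 of 15 liver arrays and 0 of 16 adipose arrays, and Adipoq on 16 of 16 adipose arrays and 2 of 15 liver arrays. Among other liver markers, Apoa1 was detected on 16 of 16 adipose arrays and Ttr on 6 of 16. Their intensities there reached 594 and 341, against at least 22700 and 21400 on liver arrays. The arrays lie on 6 chips, and within a tissue no chip held both exposures, so chip and exposure cannot be told apart. Between 8712 and 9293 probes were detected on IH livers and between 8359 and 9158 on NO livers, 319 more in IH on average (exact permutation test, two-sided, p = 0.0494). In adipose tissue 952 probes were lower by over 1 on the log2 scale in IH and 302 higher, against 26 and 48 in liver. Of 599 adipose probes lower by over 1.5, 476 were kept in liver, where their median change was 0.06. The study calls its liver arrays biological replicates. For the adipose samples no source used here says whether each is a separate mouse, so p-values there measure the spread between these samples, which may be technical.

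In liver, both REV-ERB genes were higher in IH, and Arntl was lower on every IH array although its adjusted p missed the threshold. Nr1d2 rose 3.56-fold and Nr1d1 2.89-fold. These were the 2 of 7 clock genes with an adjusted p under 0.05, both higher. Over all 6443 genes tested in liver, 0.931% were called, 0.45% higher and 0.481% lower. At an unadjusted p of 0.01 or less 2 clock genes were higher and 2 lower, namely Arntl and Clock, where 2.7% of all genes were higher and 3.54% lower. The median change of the 7 genes was 0.77 on the log2 scale and that of all genes -0.01. In bulk tissue fewer cells of a type and less RNA per cell cannot be told apart.

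Arntl encodes the activator whose loss on its own stops behavioural rhythm in mice. Its single probe (ILMN_2707510) had a lowest, median and highest log2 intensity of 4.98, 7.45 and 8.42 in IH livers, and of 8.49, 8.79 and 9.09 in NO livers. The groups did not overlap, which held for 0.295% of all genes with IH the lower. The spread was wide in IH (SD 1.30, n = 7) and narrow in NO (SD 0.20, n = 8): IH livers 19 and 22 lay lowest, at 5.49 and 4.98, and IH liver 16 highest. The probe was detected on 5 of 7 IH livers and 8 of 8 NO livers. The change was -1.76 ± 0.42 (SE), a 3.38-fold lower level, with an adjusted p of 0.0595 in limma. The exact permutation test of the mean difference gave p = 0.000155, the smallest that 6435 splits allow. IH livers 19 and 22 were the arrays without detection, so their values are readings not above background. Arntl was called in 7 of 27 alternative fits, which included the fit without IH liver 16 (adjusted p = 0.03) and that on the authors' processed values, where the change was smaller (-0.89, adjusted p = 0.0278). It was not called with chip as a random effect (-1.73, adjusted p = 0.153), with the detected probe count as a covariate (-1.53, adjusted p = 0.172), or in the other 14 fits that left out 1 liver (adjusted p up to 0.115).

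Clock, which encodes the partner of ARNTL, had a lowest, median and highest value of 8.73, 9.60 and 9.86 in IH livers, and of 9.78, 10.06 and 10.32 in NO livers. All 7 IH livers lay under the NO mean, and 5 of them under every NO liver. The change was -0.52 ± 0.15, with an adjusted p of 0.114. A second probe was kept in adipose tissue only, and the third Clock probe was detected on no array.

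Nr1d1 encodes REV-ERB alpha. Its brighter probe (ILMN_1229091) read 7.50, 8.76 and 9.07 (lowest, median and highest) in IH livers, and 5.91, 7.22 and 7.92 in NO livers. All IH livers but number 16 lay above every NO liver. The change was 1.53 ± 0.31, with an adjusted p of 0.0353, and the exact permutation p was 0.000932. The brighter probe was detected on 7 of 7 IH and 6 of 8 NO livers. The second probe was detected on 6 of 7 IH and 1 of 8 NO livers, so its level in NO livers is not measured above background and no fold change is given. The size of the change depended on the background correction, and was 0.99 without it and 0.82 on the authors' processed values, both still called. The call rested on a narrow margin: it was lost when chip entered as a random block (1.52, adjusted p = 0.105), when each array's detected probe count entered as a covariate (1.31, adjusted p = 0.122) and in 9 of the 15 fits that left out 1 liver. These were the fits without NO liver 3, 4 or 5 and without IH liver 17, 18, 19, 20, 21 or 22, with adjusted p up to 0.0805.

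Nr1d2 encodes REV-ERB beta. Its probe (ILMN_2798993) read 8.20, 9.40 and 10.10 in IH livers, and 6.45, 7.52 and 8.39 in NO livers. Here too IH liver 16 was the only IH array inside the NO range. The change was 1.83 ± 0.28, with an adjusted p of 0.00895, and it stayed called in each of the 15 fits that left out 1 liver. It was not called with IH livers 16 and 17 alone, which share 1 chip (1.15, adjusted p = 0.706), nor when the detected probe count entered as a covariate (1.62, adjusted p = 0.0694). It was still called when chip was a random block. The probe was detected on 7 of 7 IH and 7 of 8 NO livers, and the lowest NO value, 6.45, was a reading not above background. As for Nr1d1, the size of the change depended on the background correction. It was 1.38 without that correction and 1.27 on the authors' processed values, both still called. A second Nr1d2 probe was detected on 3 of 7 IH livers and 0 of 8 NO livers, and was not kept.

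The period genes and Cry2 had positive differences in liver that did not pass the adjusted threshold. Per1 encodes the repressor subunit that responds quickly to hormonal and other acute signals. It spanned 4.79 to 9.98 (median 8.00) in IH livers and 4.61 to 9.40 (median 6.78) in NO livers, with an almost full overlap, and its difference was 1.21 ± 0.82 (adjusted p = 0.488). Per2, the repressor subunit whose phosphorylation sets the length of the cycle, read 8.46, 8.91 and 10.65 in IH livers, and 7.79, 8.60 and 9.22 in NO livers. Its difference was 0.77 ± 0.32 (adjusted p = 0.229), and IH livers 19, 20 and 22 lay above every NO liver. Cry2, which encodes a cryptochrome that holds PER in the repressor complex, differed by 0.49 ± 0.19 (adjusted p = 0.195), with 6 of 7 IH livers above the NO mean. The second Per2 probe differed by 0.75 ± 0.30 and did not pass, and the second Per1 probe was detected on 5 of 7 IH and 2 of 8 NO livers.

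**Figure D1:**
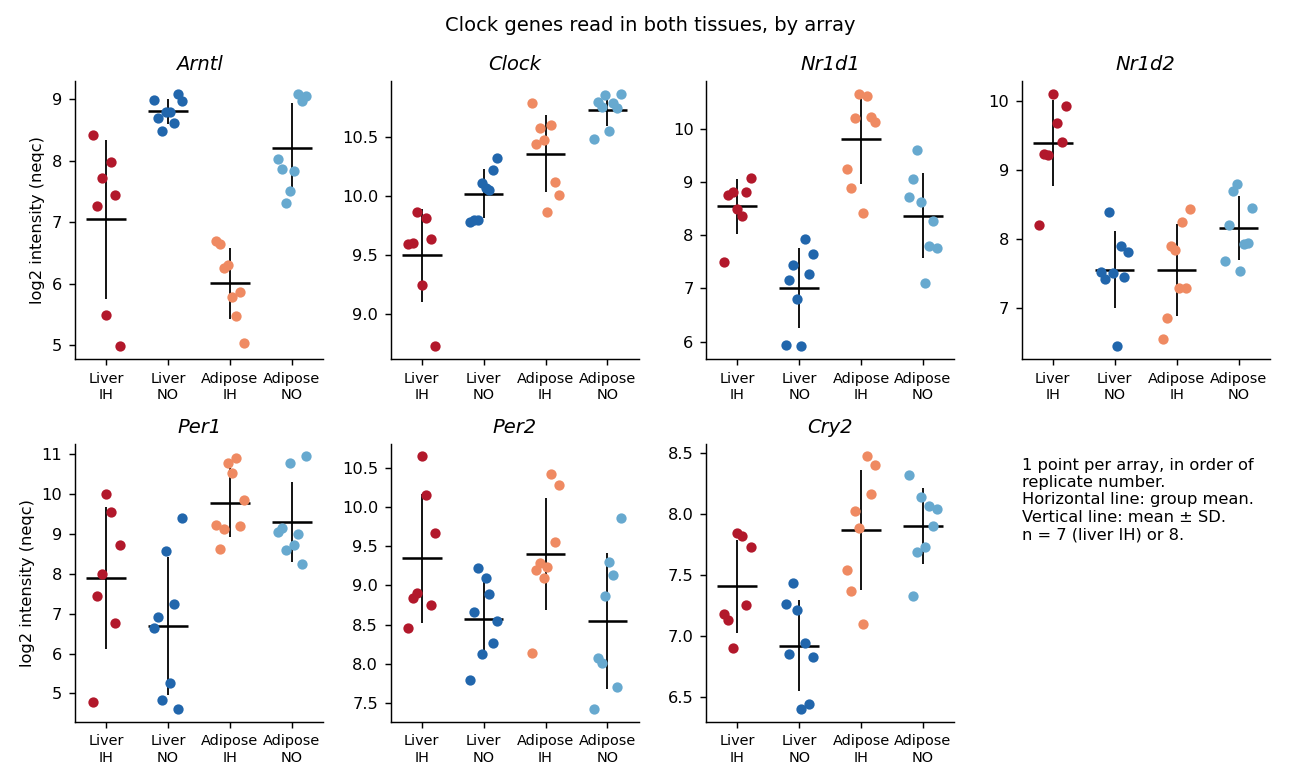
Log2 intensity (vertical axes, neqc within a tissue) of the 7 clock genes on each array, in IH and NO livers and IH and NO adipose samples; lines show the group mean and mean ± SD. Arntl lies lower in IH than in NO with no overlap in both tissues (SD 1.30 in IH livers, 0.20 in NO livers), and Nr1d2 is higher in IH than in NO in liver but has the lower mean in IH in adipose tissue.

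In adipose tissue, Arntl was 4.59-fold and Clock 1.29-fold lower in IH and Nr1d1 2.70-fold higher, whereas Nr1d2 had a negative difference that did not pass. These 3 of 7 clock genes were called, 1 higher and 2 lower, where 32.1% of all 8207 genes tested were called, 17.6% higher and 14.5% lower. The median change of the 7 genes was -0.03 and that of all genes 0.11. Arntl read 5.03, 6.05 and 6.69 (lowest, median and highest) in IH samples, and 7.31, 7.94 and 9.09 in NO samples. The groups did not overlap, which held for 8.7% of all genes with IH the lower. NO samples 6, 7 and 8 were the highest, at 9.09, 8.97 and 9.06, and IH samples 20, 21 and 22, which share 1 chip, included the lowest. The change was -2.20 ± 0.31 (adjusted p = 2.35e-05, exact permutation p = 0.000155, the smallest that 12870 splits allow), and it was called in all 30 alternative fits, with values between -2.75 and -1.25. The probe was detected on 7 of 8 IH and 8 of 8 NO samples. Of the genes tested, 2.27% fell as much or more in adipose tissue, and Arntl has no second probe to compare. Of 228 genes with several kept probes and 1 of them lower by over 1.5, 176 had another probe within 0.5 of no change.

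Clock differed by -0.37 ± 0.13 (adjusted p = 0.0337), at 9.86, 10.45 and 10.78 in IH samples, and 10.48, 10.77 and 10.86 in NO samples. Of the IH samples 5 of 8 lay under every NO sample. The dimmer Clock probe (ILMN_2600964) differed by -0.07 ± 0.16 (adjusted p = 0.785), and the call held in 16 of 31 alternative fits. It was lost on the mean of both probes (-0.22, adjusted p = 0.124), under chip as a random block (adjusted p = 0.0561) and without any 1 of 9 samples, NO 2, 3, 4, 6, 7 and 8 and IH 19, 21 and 22. The call was lost too with IH samples 15 to 19 alone, NO samples 1 to 3 alone or NO samples 4 to 8 alone. With the detected probe count as a covariate Clock was not called either.

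Nr1d1 read 8.41, 10.17 and 10.66 in IH samples, and 7.10, 8.45 and 9.61 in NO samples. Of the IH samples 5 of 8 lay above every NO sample, and IH samples 15, 16 and 19 were the low ones. The change was 1.43 ± 0.38 (adjusted p = 0.00821), the second probe rose by 1.37 ± 0.36 (adjusted p = 0.00815), and the call held in 29 of 31 alternative fits. It was lost with NO samples 1 to 3 alone as controls, which share a chip (0.67, adjusted p = 0.33), and with IH samples 15 to 19 alone (1.12, adjusted p = 0.0765).

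Nr1d2 read 6.56, 7.56 and 8.44 in IH adipose samples, and 7.54, 8.08 and 8.79 in NO adipose samples. The ranges overlapped, with 4 of 8 IH samples under every NO sample, and the difference was -0.61 ± 0.27 (adjusted p = 0.0912). By chip, it was -0.87 and called with IH samples 15 to 19 alone (adjusted p = 0.0308), and -0.17 with IH samples 20 to 22 alone (adjusted p = 0.729). Per2 differed by 0.85 ± 0.37 (adjusted p = 0.0852), with 7 of 8 IH samples above the NO mean. It was called in 5 of 31 alternative fits, and was 1.54 with IH samples 20 to 22 alone (adjusted p = 0.0318) and 0.44 with IH samples 15 to 19 alone (adjusted p = 0.435). Against NO samples 1 to 3 alone it was 1.57 (adjusted p = 0.0177), and against NO samples 4 to 8 alone 0.43 (adjusted p = 0.464). Per1 differed by 0.48 ± 0.43 (adjusted p = 0.422) and Cry2 by -0.03 ± 0.20 (adjusted p = 0.916). The second probes of Per2 and Per1 gave 0.95 ± 0.38 and 0.82 ± 0.44, neither past the threshold.

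Of 26 kept markers of cell types in the adipose arrays, 8 were called, where 32.1% of all genes were, so the count does not set the markers apart. Of the smooth muscle markers 2 of 3 kept were higher in IH, and the summed background-corrected intensity of the list ranged from 18500 to 45900 in IH and from 8880 to 27600 in NO. Of 4 mesothelial and epithelial markers 1, Krt19, was higher, with sums of 811 to 7570 in IH and 736 to 2950 in NO. Of 6 adipocyte markers 2, Fabp4 and Retn, were lower, with sums of 21200 to 64700 in IH and 50200 to 77400 in NO. Of 2 kept macrophage markers 1, Adgre1, was lower, and of 4 endothelial markers 1, Kdr. Of 3 kept hepatocyte markers 1, Serpina1a, was lower. Alb was detected on no adipose array and Apoa1 on 16 of 16. No kept red blood cell, lymphocyte or pancreas marker was called. The part of these cells in the clock gene values was not tested. In liver none of 16 kept markers from these and the hepatocyte, red blood cell and pancreas lists was called by limma. At an unadjusted limma p under 0.05 there were 4 (Alb and Alas2 higher, Clec4f and Adgre1 lower), against 1090 of all 6443 genes. That count does not set the liver markers apart either. No adipocyte or lymphocyte marker was kept in liver.

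**Figure D2:**
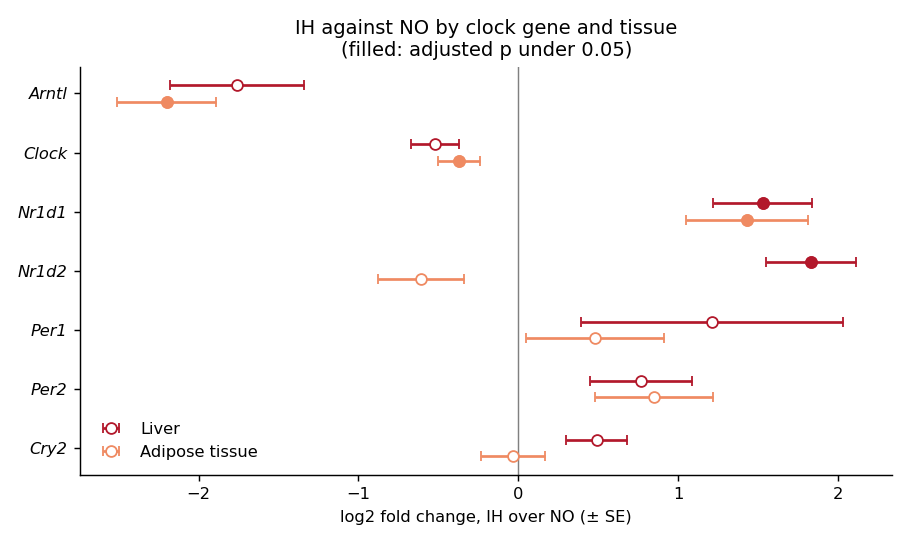
Log2 fold change of IH over NO with its standard error (horizontal axis) for the 7 clock genes in liver (7 IH, 8 NO) and adipose tissue (8 IH, 8 NO); filled points have an adjusted p under 0.05. The estimates for Nr1d1 nearly coincide (1.53 in liver, 1.43 in adipose tissue), and those for Nr1d2 lie on opposite sides of 0 (1.83 and -0.61).

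The effect of IH was then compared between the tissues in 1 fit over the 31 arrays. Nr1d2 was the 1 of 7 clock genes whose effect differed, by 2.43 ± 0.40 (liver minus adipose tissue, adjusted p = 2.03e-05). Over all 8654 genes 22.1% differed, 12% with the larger value in liver. The difference was called in 12 of 12 alternative fits, between 1.71 and 2.44, and 1 clock gene was called in each of 31 fits that left out 1 array. Its paralog Nr1d1 differed by 0.07 ± 0.51 (adjusted p = 0.939) and Arntl by 0.48 ± 0.54 (adjusted p = 0.561). For Clock, Per1, Per2 and Cry2 the differences were -0.15, 0.74, -0.09 and 0.52, with adjusted p between 0.189 and 0.922. A p above the threshold does not show that the effects were alike, and the standard errors of Per1 (0.96), Arntl (0.54), Nr1d1 (0.51) and Per2 (0.51) were wide.

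**Figure D3:**
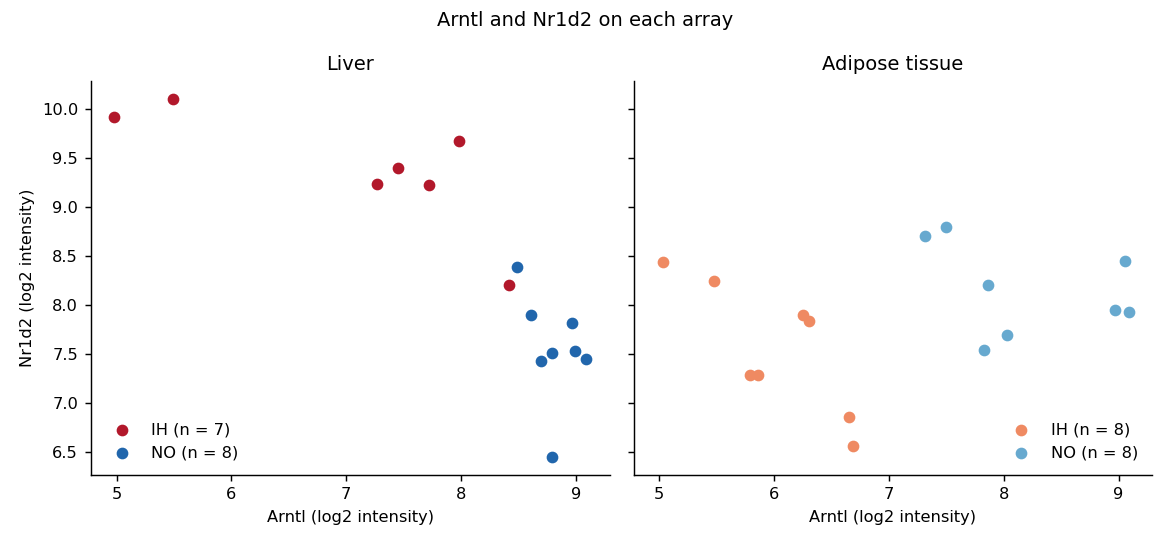
Nr1d2 (vertical axis) and Arntl (horizontal axis) log2 intensity on each array of liver (left) and adipose tissue (right), IH and NO. IH livers with little Arntl had the highest Nr1d2 (IH livers 19 and 22, 10.10 and 9.92), while in adipose tissue the IH samples had less Arntl at Nr1d2 values that overlap those of NO.

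Promoter sequence of Arntl, of both REV-ERB genes and of Per1, which was called in neither tissue, is shown to place the values beside the known elements of the loop. RefSeq windows of 250 bases before to 50 after each annotated start (build GRCm38.p6) matched 9 of the 10 genes with 13 windows, and the gene without one was Per2. The window of the later Arntl start holds a pair of ROR elements of the form AGTAGGTNA, and that of the earlier start only the upstream element. REV-ERB receptors and their ROR counterparts bind this kind of site. Both strands were searched, and 0.591% of all 32851 windows hold this form, and 2.61% its core TAGGTCA, which it can contain. Capitals mark the elements, which begin at positions -8 and 29 from the later of the start sites:
Arntl, upstream ROR element (chr7:113207493-113207521, plus strand): ttggtcggaaAGTAGGTTAgtggtgcgac
Arntl, downstream ROR element (chr7:113207529-113207557, plus strand): gaaggcagaaAGTAGGTCAgggacggagg

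The stretches below give the 200 bases before the start of both REV-ERB genes and of the earlier of the Per1 starts. Capitals mark an E-box (CACGTG, in 7.15% of all windows) or the related CACGTT on the reverse strand (4.68% of windows counting both strands):
Nr1d1 (chr11:98775378-98775577, minus strand): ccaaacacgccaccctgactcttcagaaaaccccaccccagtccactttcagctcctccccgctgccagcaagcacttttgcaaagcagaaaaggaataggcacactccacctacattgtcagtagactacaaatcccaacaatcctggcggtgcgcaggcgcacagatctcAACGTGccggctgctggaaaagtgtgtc
Nr1d2 (chr14:18239107-18239306, minus strand): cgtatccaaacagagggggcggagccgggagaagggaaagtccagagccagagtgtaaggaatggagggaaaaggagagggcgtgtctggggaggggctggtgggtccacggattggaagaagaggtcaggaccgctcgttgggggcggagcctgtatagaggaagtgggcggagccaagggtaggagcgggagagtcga
Per1 (chr11:69098749-69098948, plus strand): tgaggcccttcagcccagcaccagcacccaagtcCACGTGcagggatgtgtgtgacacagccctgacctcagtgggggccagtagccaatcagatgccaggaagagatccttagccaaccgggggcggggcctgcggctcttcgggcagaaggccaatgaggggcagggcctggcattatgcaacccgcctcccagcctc

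Nr1d1 holds the CACGTT form at position -28 from its start, and Per1 holds CACGTG at position -166 from the earlier of its starts, while the window of its later start held none of the 6 motifs searched. The Nr1d2 window also held none of the 6, which included the D-box TTATGTAA (0.938% of windows) and the CRE TGACGTCA (1.79%). The Cry2 window holds CACGTT on the reverse strand, the Cry1 window holds CACGTG and CACGTT, and the Per3 window 2 copies of TTATGTAA. The Npas2 and Clock windows held none of the 6. A match describes the letters in these windows and is not a measured binding site. The part of these motifs in the clock gene values was not tested.

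Basal levels were compared between NO livers and NO adipose samples on values normalized together. The NO livers lie on 1 chip and the NO adipose samples on 2 others, so chip and tissue cannot be told apart here. Clock (-0.70 ± 0.14, adjusted p = 4.31e-05), Nr1d1 (-1.31 ± 0.35, adjusted p = 0.00142), Cry2 (-0.94 ± 0.19, adjusted p = 7e-05) and Per1 (-2.62 ± 0.67, adjusted p = 0.000829) were lower in liver, as log2 differences of liver minus adipose tissue. These 4 of 7 compare with 73.9% of all genes called, 44% lower in liver. Per1 averaged 6.68 ± 1.77 in NO livers and 9.29 ± 1.00 in NO adipose samples (SD, n = 8 each), and Clock 10.02 ± 0.20 in NO livers and 10.73 ± 0.14 in NO adipose samples. Per1 was detected on 5 of 8 NO livers, Nr1d1 on 6 and Cry2 on 7. Their liver means and differences thus include readings not above background. Arntl (0.62, adjusted p = 0.134), Nr1d2 (-0.56, adjusted p = 0.0675) and Per2 (0.05, adjusted p = 0.904) did not pass. On the authors' processed values, which were normalized within each tissue, the median over all genes was -0.90, against -0.22 on the values normalized together, and Arntl and Per2 reversed to -0.68 and -1.11.

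Per1 had the largest SD of the 7 clock genes in each of the 4 groups, and it varied alike in liver and adipose arrays that carry the same number. The NO arrays are numbered 1 to 8 and the IH arrays up to 22 in both tissues, but the labels do not say that a number is 1 mouse. In NO, the livers read 6.64, 6.92, 4.83, 8.56, 5.27, 7.24, 4.61 and 9.40 for numbers 1 to 8. The adipose samples of the same numbers read 9.04, 9.13, 8.59, 10.77, 8.71, 8.99, 8.23 and 10.93. Numbers 4 and 8 were the highest in both tissues. Per1 was not detected on NO livers 3, 5 and 7, so the order of these 3 in liver, and the part of rho that rests on it, is an order of readings not above background. Pearson r was 0.94 (exact permutation p = 0.000124, adjusted p = 0.00174 over 14 relations) and Spearman rho 0.93 (p = 0.00223, adjusted p = 0.0312). Of 5996 genes kept in both tissues, 0.5% had as high an r in NO, and their median was 0.07. Without numbers 7 and 8, the farthest from the liver median, r was 0.86 (exact p = 0.00694, adjusted p = 0.0972), and without numbers 4 and 8, left out after seeing the values, it was 0.91 over 6 numbers (exact p = 0.0167, rho 0.83, p = 0.0583). The NO livers share 1 chip, and over the 5 numbers whose adipose samples also share one r was 0.95 (exact permutation p = 0.025), a value added after seeing the data that includes 2 livers without detection.

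In IH, r for Per1 was 0.84 over 7 numbers (exact permutation p = 0.0141, adjusted p = 0.0987) and rho 0.79 (adjusted p = 0.336). IH number 16 was the lowest in both tissues, at 4.79 in liver, where it was not detected, and 8.62 in adipose tissue, and numbers 18, 19 and 20 were the highest in adipose tissue. All 14 relations, for 7 genes in each exposure, were positive, from 0.09 to 0.94, but they share arrays. Without the 2 farthest numbers of each they ran from -0.48 (Nr1d1 in NO) to 0.86 (Per1 in NO and Per2 in IH). Over all 5996 genes the median r was 0.06 in IH and 0.07 in NO, and the share with a positive r was not computed. The Per1 relation in NO was the 1 with an adjusted p under 0.05 in the exact permutation test, with 3 at an unadjusted p under 0.05. For Arntl, r was 0.69 in IH and 0.46 in NO (adjusted p = 0.257 and 0.425). Leaving out the 2 farthest numbers gave 0.27 and -0.04 for Arntl, so those values rest on numbers 19 and 22 in IH and 3 and 7 in NO. The IH adipose chips hold 5 and 3 samples and were too small for values of their own.

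**Figure D4:**
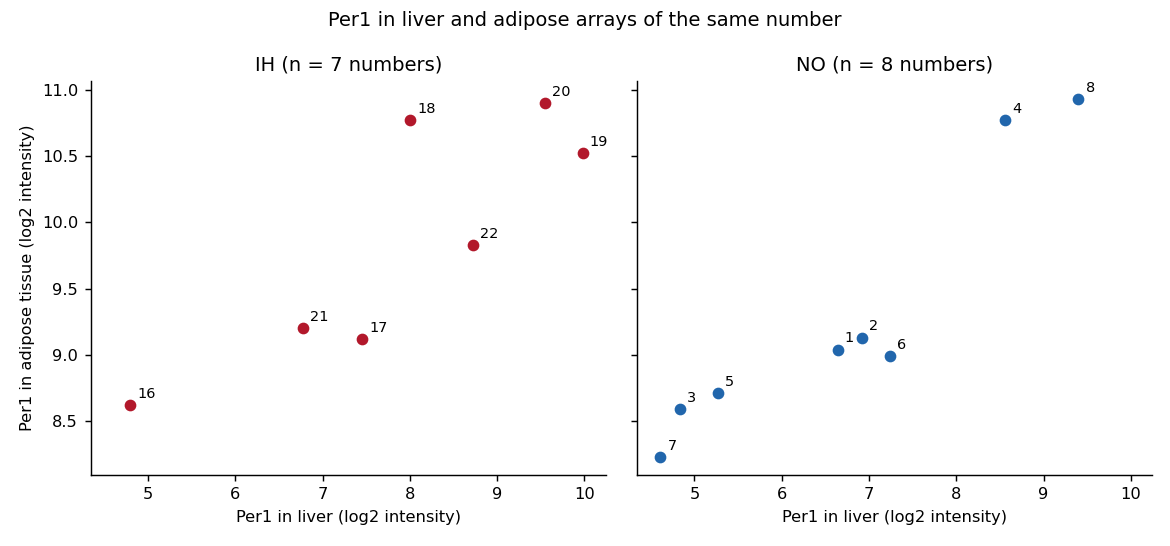
Per1 log2 intensity in adipose tissue (vertical axis) against that in liver (horizontal axis) for arrays of the same number, IH (left, 7 numbers) and NO (right, 8 numbers). In NO, numbers 4 and 8 lie at the top right (8.56 and 9.40 in liver) and number 7, not detected in liver, at the bottom left, with r of 0.94.

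Among themselves, clock genes were compared array by array within each group, for the pairs Arntl with Clock, Arntl with Nr1d1 and Nr1d1 with Nr1d2. Of 12 relations 0 had an adjusted p under 0.05 in the exact permutation test and 2 an unadjusted one. Arntl and Clock correlated at r = 0.89 in IH livers (n = 7, exact p = 0.0111, adjusted p = 0.133, rho 0.61), and at 0.06 without the 2 arrays farthest from the Arntl median. That relation thus rests on IH livers 19 and 22, lowest for both genes and without detection of Arntl. Nr1d1 and Nr1d2 had r of 0.70 in IH livers and 0.71 in NO livers, and of 0.69 in IH and 0.57 in NO adipose samples, with adjusted p of 0.252 to 0.267. Without the 2 farthest arrays these were -0.18 in IH livers, 0.52 in NO livers, 0.75 in IH and 0.00 in NO adipose samples, so the values in IH livers and NO adipose samples rest on 2 arrays each. Arntl and Nr1d1 had r of -0.57 in IH and -0.32 in NO livers, and -0.33 in IH and -0.55 in NO adipose samples, with adjusted p of 0.267 to 0.476. Without the 2 farthest arrays these were -0.91 in IH and -0.44 in NO livers, and -0.22 in IH and -0.35 in NO adipose samples.

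Of 21 further genes of the clock network, 10 were measured in liver and 11 in adipose tissue, and Dbp was called in both. Dbp, an output activator driven through E-boxes, read 8.43, 10.81 and 13.06 (lowest, median and highest) in IH livers, and 7.22, 7.73 and 8.48 in NO livers. Of the IH livers 6 of 7 lay above every NO liver. It was higher by 3.05 ± 0.54 (adjusted p = 0.0301) in liver and by 2.09 ± 0.44 (adjusted p = 0.00168) in adipose tissue. Values under the alternative fits were kept for the 10 clock genes only, so how far the Dbp calls depend on the processing was not tested. In liver 1 of 10 network genes rose and 0 fell, where 0.931% of all genes were called. At an unadjusted limma p of 0.01 or less 2 were higher and 1 lower, where 2.7% of all genes were higher and 3.54% lower. In adipose tissue 2 of 11 rose and 1 fell, where 32.1% of all genes were called, so the list does not stand out there. Tef did not pass in either tissue (1.22, adjusted p = 0.0663 in liver, and 0.12 in adipose tissue). The 3 called in adipose tissue were Dbp, Btrc (0.75 ± 0.19, adjusted p = 0.0057), which encodes a ubiquitin ligase subunit that marks PER for breakdown, and Nfil3 (-0.87 ± 0.29, adjusted p = 0.0313), which encodes the repressor of D-box sites. The median over the list was 0.41 in liver and -0.01 in adipose tissue. Btrc was also the 1 network gene of 11 whose effect differed between the tissues (-0.65 ± 0.24, adjusted p = 0.0464), where 22.1% of all genes differed.

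The livers whose Arntl was low within their own group also had other values for several clock outputs, described here over the 15 livers after each group mean was taken off. All points share the arrays and the normalization, and IH livers 19 and 22, without detection of Arntl, lay farthest out for it. The SD of Arntl was 1.30 in IH and 0.20 in NO livers. Within IH livers, r of Arntl with Clock was 0.89, and 0.06 without livers 19 and 22. The r values with Arntl below were not computed without these 2 livers and may rest on them. With Arntl, r was 0.81 for Clock and 0.71 for Nfil3. It was -0.88 for Dbp, -0.82 for Tef, which encodes another D-box activator, and -0.59 for Nr1d2. For Per2, Cry2, Per1 and Nr1d1 it was -0.56, -0.45, -0.38 and -0.35. Of all genes 0.0776% had as high an r as Clock and 0.357% as Nfil3. As low an r as Dbp was held by 0.0155%, as Nr1d2 by 0.807% and as Nr1d1 by 7.64%. Outside the clock lists the 5 genes with the highest r among 6426 were Avpr1a (0.92), which encodes a vasopressin receptor, Clpx (0.85), Hmox2 (0.84), Lrfn3 (0.83) and Insig2 (0.80), an inhibitor of sterol synthesis. The 5 lowest were Mbl2 (-0.84), Pcsk4 (-0.82), 1700001C19Rik (-0.75), Ccng1 (-0.75) and Snu13 (-0.74). The r values with Nr1d2 were not computed with any liver left out. NO liver 5, the lowest NO liver for Nr1d2, Nr1d1 and Cry2, had readings not above background for each. Within IH livers, r of Nr1d1 with Nr1d2 was 0.70, and -0.18 without the 2 farthest arrays. In NO livers these were 0.71 and 0.52. With Nr1d2, r was 0.70 for Cry2, 0.68 for Nr1d1 and 0.70 for Dbp. It was 0.58 for Tef, 0.54 for Per1, 0.53 for Per2, -0.35 for Clock and -0.29 for Nfil3. Of all genes 0.373% had as high an r as Cry2 and 3.23% as Per2. The 5 highest outside the lists were Mcl1 (0.88), which encodes a survival factor of the BCL2 family, Fnip1 (0.85), Tmx4 (0.80), Sqor (0.78) and Kiz (0.78), and the 5 lowest Helz2 (-0.83), Mpp1 (-0.80), Ufsp1 (-0.78), Masp2 (-0.77) and Zfyve1 (-0.77). None of these 20 genes was called between IH and NO in liver, with adjusted p between 0.146 and 0.971.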

How the data were processed

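Liver and epididymal adipose RNA (250 ng) was labelled and hybridised to Illumina MouseRef-8 BeadChips, and the authors extracted the values with GenomeStudio 2011.1 with no further normalization stated. The deposited intensity values are linear and come with a detection p-value per probe and array, deposited by the authors. Array medians lay between 136.28 and 136.81, and sorted values of any pair of arrays differed by at most 1.05%, although the table is named not normalized. The authors' processed intensity values, normalized within each tissue, served as an alternative. Each probe with its symbol came from the platform annotation: 23978 of 25697 probes carried 1 symbol and 1719 none.

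Intensities were background corrected and quantile normalized with neqc (limma 3.58.1, R 4.3.3, offset 16), within a tissue for IH against NO and over 31 arrays otherwise. Linear models with moderated statistics were fitted to 6443 liver, 8207 adipose and 8654 joint genes, with Benjamini-Hochberg adjustment and a threshold of 0.05. The methods name SAM at a 5% false discovery rate. Single values were tested with exact permutation tests over 6435 liver and 12870 adipose splits, two-sided (scipy 1.17.1). The number of arrays limits the precision. Scripts were tested on simulated data. The members, the network and marker lists and the tests were chosen with earlier results of these data known. All 10 clock genes are named, the network genes that were called or set beside Arntl and Nr1d2, and the 5 genes most and 5 least like each of Arntl and Nr1d2 in liver. Alternatives covered normalization, filter, probe choice, array weights, chip, mouse number and leaving out each array, and subsets by chip and a covariate of detected probes were added after seeing the data.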

Additional observations from a re-analysis of the deposited data

Results flagged for a closer look

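The effect of IH on Nr1d2 differed between liver and adipose tissue by 2.43 on the log2 scale in the test of the difference itself. In liver 7 of 7 IH arrays lay above the NO mean, and in adipose tissue 6 of 8 IH arrays lay below it. Dixon's criterion marked no single array of a clock gene in 28 groups of 7 or 8 arrays, where chance alone marks about 1 in 20. It takes the gap between the outermost array and its neighbour, so it cannot mark 2 arrays that lie apart together. For Arntl, IH livers 19 and 22 lay so, at 5.49 and 4.98, with the next at 7.27. For Per1, NO adipose samples 4 and 8 did, at 10.77 and 10.93, with the next at 9.13.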

How the results depend on the processing

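The number of clock genes called in liver, 2 of 7, was 1 with no detection filter, 1 with chip as a random block, and 0 with detection required on every array, where only 2 clock genes were left to test. It was 0 with IH livers 16 and 17 alone and 0 with the detected probe count as a covariate, with 3 and 4 clock genes at an unadjusted p under 0.05 in limma. Leaving out 1 liver gave 1 to 3. The genes called over the whole liver table, 60, became 220 with array weights, 5 with the chip block, 0 with IH livers 16 and 17 (431 at an unadjusted p under 0.05), 1 with the covariate, and 5 to 100 without 1 liver. In adipose tissue 2638 became 1605 with NO samples 1 to 3 alone, and leaving out 1 sample gave 2 to 4 clock genes. For the difference between tissues 1916 became 1221 with the chip block. Between NO tissues 7 clock genes were called on the authors' processed values in place of 4. Over all 8654 genes 8031 were called there in place of 6392, so that count does not set the clock genes apart. Arntl and Per2 reversed to -0.68 and -1.11 on those values. Leaving out 1 array gave 4 or 5 clock genes between NO tissues. Leaving out the 2 farthest numbers gave 0 relations between tissues in place of 1, with 1 at an unadjusted p under 0.05 over 5 or 6 numbers. Beyond fewer arrays or genes, the cause was not tested.

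The numbers were taken only as numbers. Over 8654 genes, arrays of the same number correlated at -0.03 to 0.22 after group means were taken off, over 0.1 in 8 of 15 pairs, and 8 of 15 livers correlated best with their own number. With the mouse number as a replicate block, 1 clock gene differed in effect and 1996 genes in all, and 4 clock genes and 6442 genes differed between NO tissues, so it changed no call of a clock gene. Signal near background left Per3, Cry1 and Npas2 without a test.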
